A study of Rattus norvegicus with 24 samples.

Results

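The ventral tegmental area (VTA) and the nucleus accumbens (NAc) were compared within saline-treated rats that had given a library from each region. The rule took the 4 saline rats with both libraries, males 1 and 3 and females 1 and 2, and set the VTA library of each rat against the NAc library of the same rat. These are 8 of the 24 libraries of the series and 4 of its 14 rats. All rats were Sprague Dawley, and no source used here states their age. The study gave rats fentanyl, an opioid agonist, or saline, and its title names withdrawal from opioids and the choice of fentanyl over food. The saline rats were decapitated at the hour of a choice session that was then not held, as were the fentanyl rats. Another 2 saline rats gave a NAc library only. The 6 fentanyl rats with both regions (12 libraries, males 1, 2 and 3 and females 1, 2 and 7) were used as a repeat of the region difference in other animals.

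The VTA is a midbrain area with dopamine neurons, together with neurons that release GABA or glutamate, and its dopamine axons reach the NAc. The NAc is the ventral part of the striatum, and most of its neurons are GABA-releasing spiny projection neurons that receive that dopamine. The pathway between them is the mesolimbic pathway, known for its part in reward and in the action of opioids.

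RNA was taken from bilateral punches of brain slices 1 mm thick. The NAc punch was 12 gauge, with an internal diameter of 2.16 mm, and the VTA punch 16 gauge, with an internal diameter of 1.19 mm, so region and punch size cannot be told apart. A punch holds all cell types of the area, and in such bulk tissue fewer cells of a type and less RNA per cell cannot be told apart. The deposited tables pair no gene ID with a name, so the labelled regions were not checked here against marker genes by name, and genes are given by ID or by position, with coordinates as in the tables (the genome build is not stated in any source used). Total counts ran from 5.17 M to 5.88 M per VTA library and from 3.46 M to 4.77 M per NAc library, and 19069 to 19475 features had a count in a VTA library against 18247 to 18834 in a NAc library. Samples of a sex and region were different rats, and their counts differed well beyond sampling noise (chi-square per degree of freedom 5.68 to 12.1).

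About as many genes were higher in the VTA as in the NAc, and together they made up nearly every other gene measured. Of 13286 genes tested, 6382 (48%) were called, that is, had a Benjamini-Hochberg adjusted p under 0.05 in edgeR's quasi-likelihood test with rat as a block. There were 3155 genes (23.7%) higher in the VTA, with a median log2 fold change of 0.88, and 3227 (24.3%) higher in the NAc, with a median of -0.84. The median over all genes tested was -0.00094, which the TMM scaling sets near 0, and this favours an even split of the calls. At an unadjusted p under 0.05 the count was 7248. A fold change is given throughout as VTA minus NAc on the log2 scale, so that a positive value is higher in the VTA.

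In many called genes the regions were apart library by library. Of the called genes, 6160 (96.5%) had the same sign in all 4 rats. The call rests on these same rats, so this agreement is set largely by the call. With the further condition that no VTA library overlapped any NAc library, 2762 genes higher in the VTA and 2835 higher in the NAc remained, 5597 in all (42.1% of those tested). The first principal component of the 2000 most variable genes held 84.8% of the variance and separated the regions, with VTA libraries at 43.2 to 55.8 and NAc libraries at -57.0 to -49.4. The second held 5.06%, and along it the male libraries were above 0 and the female libraries below 0 in each region. The median SD of log2 CPM (counts relative to the TMM-scaled library size) was 0.21 over the VTA libraries and 0.23 over the NAc libraries. The median absolute difference between regions was 0.22 in genes not called and 0.86 in those called, which the call selects for a large difference relative to the spread.

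Large differences were fewer. A test against a 2-fold change (glmTreat on the same fit) called 1338 genes (10.1%), 609 higher in the VTA and 729 higher in the NAc. Among the genes called against no change, fitted folds passed 4 in 380 genes higher in the VTA and 455 higher in the NAc. They passed 16 in 78 and 98 genes, and 64 in 28 and 25 genes.

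**Figure D1:**
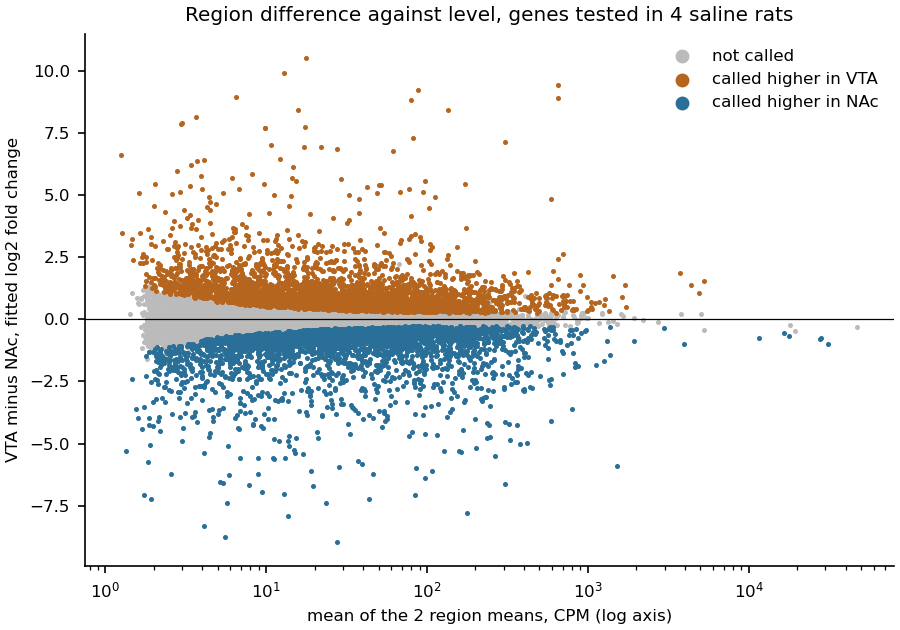
Fitted log2 fold change (VTA minus NAc, y axis) of each of the 13286 genes tested against the mean of its region means in CPM (x axis, log axis), in 4 saline rats. Genes called higher in the VTA are brown (3155), those called higher in the NAc blue (3227) and the rest grey. Large differences lie at low and middle levels and also at high ones, as in 2 abundant chromosome 1 genes at 9.44 and 8.92. The features of the highest level, at the right, lie on the NAc side or near 0.

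Among the genes higher in the VTA, the 2 largest fold changes by the naming rule were at features with no NAc count at all. ENSRNOG00000010681 lies on chromosome 2 (233602732 to 233621129, plus strand, 5 exon blocks). It had 2.62 CPM in the VTA of male 1, 12.7 in male 3, 12.9 in female 1 and 114 in female 2, and 0 counts in all 4 NAc libraries. The VTA libraries differed widely among themselves, with female 2 above the other 3, while the regions did not overlap, which the rule required. By counts (805 against 0, with a floor of 3 counts over the NAc group) the level was at least 178-fold higher in the VTA, and the fitted log2 fold change was 10.53 ± 0.54 (SE, adjusted p = 5.61e-08, n = 4 rats, edgeR). Female 2 gave 637 of the 805 VTA counts; without that rat the level was at least 35.5-fold higher and the fitted value 8.59, and limma voom gave 6.89. Without rat as a block the gene was not called (log2 fold change 10.61, adjusted p = 0.133), nor was it over all 10 saline libraries without the block (10.56, adjusted p = 0.1). The alternatives tried gave adjusted p-values from 1.56e-74 to 0.133.

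ENSRNOG00000011039 on chromosome 15 (23934585 to 23969011, minus strand, 6 exon blocks) showed the opposite order of rats. Its VTA level was 42.0 CPM in male 1, 26.2 in male 3, 25.7 in female 1 and 9.69 in female 2, and the NAc libraries again had 0 counts. Here female 2 was the lowest of the VTA libraries and male 1 the highest. The counts were 618 against 0, at least 136-fold higher in the VTA, with a fitted log2 fold change of 9.93 ± 0.52 (SE, adjusted p = 6.77e-08, n = 4 rats, edgeR). It was 7.47 with limma voom and 7.83 over all 10 saline libraries, where each of the other 2 NAc libraries had 1 count.

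Higher in the NAc, ENSRNOG00000018780 on chromosome 18 (36371041 to 36471015, plus strand, 9 exon blocks) was close to even among the rats. The NAc libraries had 51.0 CPM in male 1, 59.0 in male 3, 50.6 in female 1 and 59.2 in female 2. In the VTA, 1 count was found in each male and none in either female. The count ratio, relative to the TMM-scaled library sizes, was 644 (95% counting interval 178 to 5324). The fitted log2 fold change was -8.96 ± 0.32 (SE, adjusted p = 1.16e-10, n = 4 rats, edgeR).

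ENSRNOG00000005277 on chromosome 13 (51935243 to 51955735, minus strand, 35 exon blocks) overlaps 1 other annotated feature, and the sources used here do not say whether the counting used strand. It had 11.4 CPM in the NAc of male 1, 6.66 in male 3, 9.39 in female 1 and 17.2 in female 2, against 0 counts in all 4 VTA libraries. The counts were 177 against 0, at least 89.2-fold higher in the NAc, with a fitted log2 fold change of -8.76 ± 0.64 (SE, adjusted p = 9.97e-07, n = 4 rats, edgeR; -6.98 with limma voom). Without female 2 the level was at least 55.2-fold higher. The interval and the floors reflect counting alone: they use counts pooled over the 4 rats and leave out the variation between rats. They also take each read as a separate molecule, which reads copied by PCR are not.

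A few features were found in 1 region alone at this depth. The conditions were at least 10 counts in all 4 libraries of a region and 0 counts in all 4 of the other. The higher total counts of the VTA libraries made both easier to meet for a VTA feature. Of 32552 features, 7 met them in the VTA and 3 in the NAc. Those of the NAc were the chromosome 13 gene just described, a feature of 8 exon blocks on chromosome 2 (260574190 to 260596777) with 42, 23, 24 and 34 counts in males 1 and 3 and females 1 and 2, and a feature of 3 exon blocks on chromosome 1 (280334897 to 280338813) with 12, 10, 25 and 15 counts. In the 12 fentanyl libraries the chromosome 2 feature again had no VTA count, with 20 to 117 counts in the NAc libraries. It was the only one of the 10 that stayed at 0 there, and the others reached 1 to 7 counts in a library of the region where saline rats had none. In the region where they were found, 2 of the 7 VTA features and 2 of the 3 NAc features kept at least 10 counts in every fentanyl library. Among the 7 VTA features, a feature of 3 exon blocks on chromosome 12 (17182163 to 17186679) was among the most even in saline rats, with 34, 39, 35 and 32 counts in the same order. It was 1 of 3 VTA features with 0 counts in the VTA library of fentanyl female 2, the one fentanyl VTA library where any of the 7 was at 0. One of 3 exon blocks on chromosome 3 (142383278 to 142387481) ran from 117 counts in male 1 through 73 and 86 to 33 in female 2.

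The 4 most abundant genes past 16-fold in each direction are given by position, and they were chosen after their values were seen. Only genes with the same sign in all 4 rats and no overlap of the regions were considered. On the VTA side, 3 of the 4 lie on chromosome 1. The first (32321580 to 32363983, 15 exon blocks) had 2046 CPM in the VTA of male 1, 1461 in male 3, 1165 in female 1 and 577 in female 2, against 0.3, 0.317, 2.65 and 2.87 CPM in the NAc. The second (216073031 to 216080287, 13 exon blocks) had 2088, 1451, 1170 and 519 CPM in the same order, against 2.4, 0.634, 2.65 and 3.58. Both were above 500 CPM in every VTA library and below 4 CPM in every NAc library. Their fitted log2 fold changes were 9.44 ± 0.54 and 8.92 ± 0.41 (SE; adjusted p = 3.33e-05 and 1.88e-06, edgeR).

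The third (280423079 to 280457148, 16 exon blocks) was also expressed in the NAc, at 31.6 to 37.5 CPM. Its VTA level was 1826 CPM in male 1, 1292 in male 3, 999 in female 1 and 489 in female 2, a fitted log2 fold change of 4.86 ± 0.31 (SE, adjusted p = 1.23e-05, edgeR). The fourth lies on chromosome 4 (150202058 to 150244372, 20 exon blocks), with 810, 678, 581 and 361 CPM in the VTA and 3.17 to 5.97 CPM in the NAc (7.13 ± 0.26, SE, adjusted p = 5.61e-09, edgeR). All 4 genes fell in the order male 1, male 3, female 1, female 2 in the VTA, and this order was not tested. Per kilobase of exon, the second chromosome 1 gene was the highest of the 4 in the VTA, with a mean of 740 CPM per kb, against 384 and 395 for the other chromosome 1 genes and 109 for the chromosome 4 gene.

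On the NAc side, the most abundant was a gene on chromosome 8 (120323897 to 120446507, 21 exon blocks) that overlaps 1 other feature. It had 2579 CPM in the NAc of male 1, 3814 in male 3, 2792 in female 1 and 2662 in female 2. Its VTA levels were 25.4, 38.4, 49.6 and 115 CPM, with female 2 the highest and male 1 the lowest. The fitted log2 fold change was -5.89 ± 0.47 (SE, adjusted p = 0.000215, edgeR).

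The other 3 were on chromosomes 3, 4 and 14. The chromosome 3 gene (101840630 to 102151489, 27 exon blocks, overlapping 1 other feature) averaged 1117 ± 365 CPM in the NAc and 63.5 ± 11.0 in the VTA (SD, n = 4 rats), a log2 fold change of -4.09 ± 0.24. The chromosome 4 gene (84597323 to 84676775, 9 exon blocks) averaged 807 ± 105 CPM in the NAc and 25.4 ± 3.99 in the VTA, a log2 fold change of -4.99 ± 0.15. The chromosome 14 gene (78640620 to 78665966, 8 exon blocks) averaged 735 ± 76.6 CPM in the NAc and 22.6 ± 4.31 in the VTA, a log2 fold change of -5.03 ± 0.17. The NAc levels of the 3 showed no shared order of rats. Per kilobase of exon, their NAc means were 187, 181 and 206 CPM per kb, close to each other, and 573 CPM per kb for the chromosome 8 gene.

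**Figure D2:**
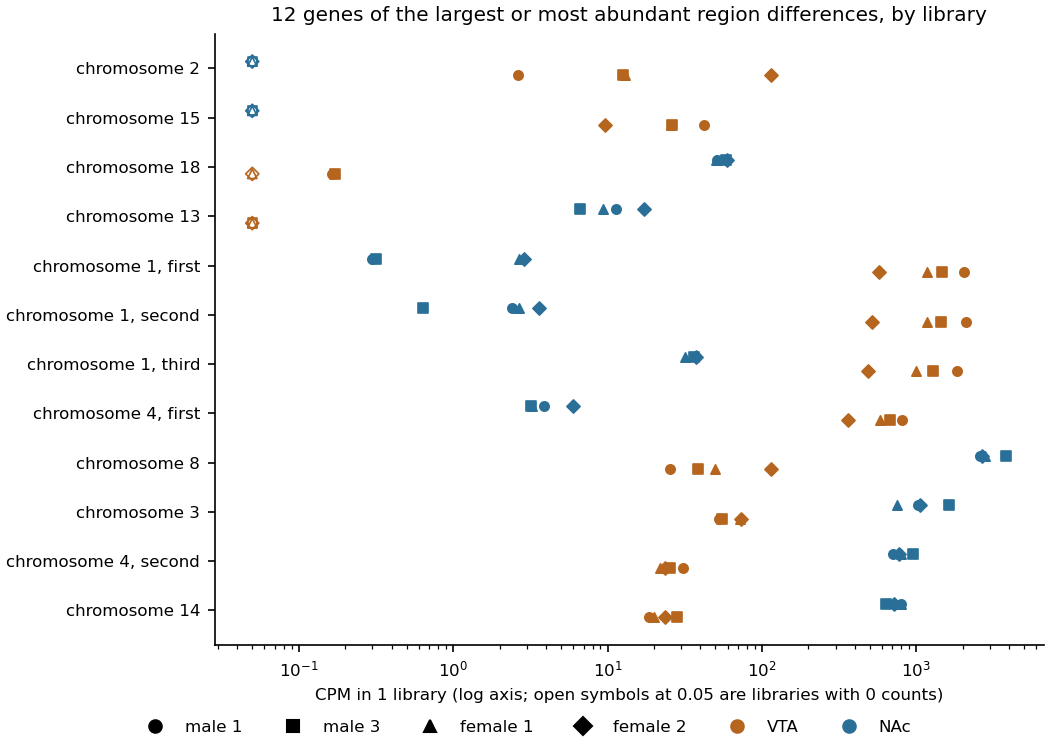
CPM in each of the 8 libraries (x axis, log axis) for the 4 genes given by ID and the 8 given by position (y axis, by chromosome, in the order described). Brown symbols are VTA and blue symbols NAc libraries, shapes are the rats, and open symbols at 0.05 stand for 0 counts. In all 12 genes the VTA and NAc libraries are apart, which was required in choosing them. Female 2 is the lowest VTA library in the 4 abundant VTA genes.

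The saline VTA libraries were unequal on genes that mark the region, and this was followed with genes chosen in other animals. In the fentanyl rats, 274 genes were called and fitted more than 4-fold higher in the VTA, and 394 more than 4-fold higher in the NAc. Of these, 261 and 387 passed the low-count filter in the saline rats, where 259 and 387 were called in the same direction. Within single saline rats the median log2 difference of the 261 genes was 2.49 in male 1, 2.91 in male 3, 2.71 in female 1 and 2.30 in female 2. For the 387 genes it was -2.80, -2.94, -2.89 and -2.55. Female 2 thus had the smallest median in both directions, with the sign of the group in 260 of 261 and 387 of 387 genes.

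As a share of the counts outside the mitochondrial chromosome, the 274 genes took 2.86% in the VTA of male 1, 2.77% in male 3, 2.55% in female 1 and 1.89% in female 2, against 0.236% to 0.308% in the NAc libraries. The 394 genes took 7.55% to 8.40% in the NAc libraries and 1.11%, 1.04%, 1.02% and 1.40% in the VTA of the same rats in that order. The VTA library of female 2 was therefore lower on the VTA genes and higher on the NAc genes than those of the other rats. Against the mean of the other 3 VTA libraries, its median log2 difference was -0.30 over the 261 genes and 0.40 over the 387 genes, and 0.0084 over all genes tested. It was the lowest of the 4 VTA libraries in 129 of the 261 genes. The order seen in the 4 abundant genes was the most frequent of the 24 possible, with 43 of 261 genes, but most genes had another.

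**Figure D3:**
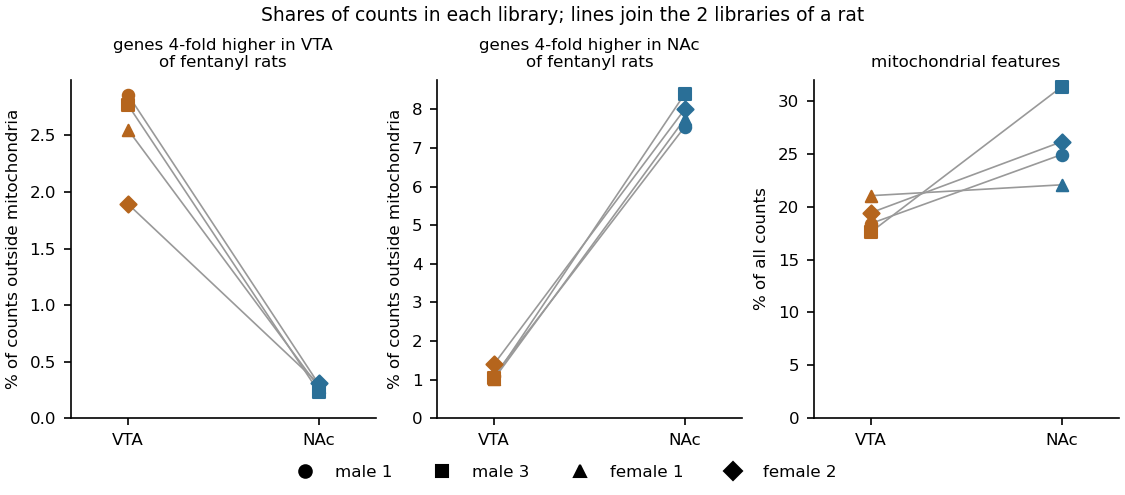
Share of counts in each of the 8 saline libraries (y axes, percent) for genes more than 4-fold higher in the VTA (left) or the NAc (middle) of fentanyl rats, and for mitochondrial features (right); shapes are rats and lines join the libraries of a rat. In the left panel the VTA of female 2 is at 1.89% and those of the other rats at 2.55% to 2.86%, and in the right panel all 4 lines rise from VTA to NAc.

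What sets female 2 apart was not tested. Left out of the comparison, 6263 genes were called, 3118 higher in the VTA and 3145 higher in the NAc, and 1481 passed the test against 2-fold. The choice of the gene groups also depends on a library of the fentanyl rats. In the VTA of fentanyl female 2, the first and second chromosome 1 genes had 2.67 and 3.91 CPM (here CPM of all counts, without TMM scaling), against 720 to 1429 and 604 to 1251 in the VTA of the other 5 fentanyl rats. The third chromosome 1 gene had 105 CPM there against 698 to 1391, and the chromosome 4 gene of the VTA side 58.6 against 402 to 659. ENSRNOG00000010681 had 0 counts there, against 29 to 157 counts in the other 5.

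On a wider group of VTA genes that library was closer to the others. With the genes chosen without fentanyl female 2, 349 were more than 4-fold higher in the VTA, and they took 2.55% of the counts outside the mitochondrial chromosome in its VTA library, against 2.97% to 3.50% in the 5 others. In its NAc library they took 0.804%, against 0.348% to 0.441%. The NAc genes chosen in the same way took 5.76% there, against 7.57% to 8.81%, so that rat's NAc library also stood apart. The other 5 are the rats in which these genes were chosen. In the saline rats, 332 of the 349 were tested and 326 called higher in the VTA, with medians of 2.47, 2.87, 2.64 and 2.27 in males 1 and 3 and females 1 and 2. The medians of the 415 NAc genes then tested were -2.75, -2.90, -2.82 and -2.46. The order of the saline rats was as before, with female 2 lowest in each.

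The region difference recurred in the fentanyl rats, which share no library with the saline rats. There, 12852 genes were tested and 7173 (55.8%) called, 3653 higher in the VTA and 3520 higher in the NAc. Of the 6382 saline calls, 183 did not pass the low-count filter in the fentanyl rats and 6199 could be tested there. Of these, 6133 (98.9%) had the same sign, 5358 (86.4%) were called with the same sign and 1 was called with the opposite sign. As a share of the fentanyl calls tested in saline rats, the genes called with the same sign in both were 75.3%. Genes not called in saline rats had the same sign in 75.9%. Of 2455 saline calls with a fitted fold over 2, 2447 had the same sign.

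Across the 12687 genes tested in both, log2 fold changes correlated with Pearson's r of 0.942 and Spearman's rho of 0.907, as a description, since genes are not independent and share libraries. The median absolute log2 fold change of the saline calls was 0.84 in saline rats and 0.80 in fentanyl rats. Without fentanyl female 2, 99.3% had the same sign, 88.3% were called with the same sign, and Pearson's r was 0.953. Of the genes given by ID, 3 had smaller fitted log2 fold changes in the fentanyl rats than in saline rats: 5.78 against 9.93 for ENSRNOG00000011039, -6.88 against -8.96 for ENSRNOG00000018780 and -4.94 against -8.76 for ENSRNOG00000005277. ENSRNOG00000010681 did not pass the low-count filter there, with 0 counts in the VTA of fentanyl female 2, and was not tested. These genes were chosen as the largest in saline rats and have few or no counts in the other region, so their fitted values rest on very low counts. The 4 abundant VTA genes had 9.33, 8.11, 4.23 and 5.22 in the fentanyl rats, against 9.44, 8.92, 4.86 and 7.13. The 4 abundant NAc genes had -5.91, -3.89, -5.40 and -5.24, against -5.89, -4.09, -4.99 and -5.03.

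**Figure D4:**
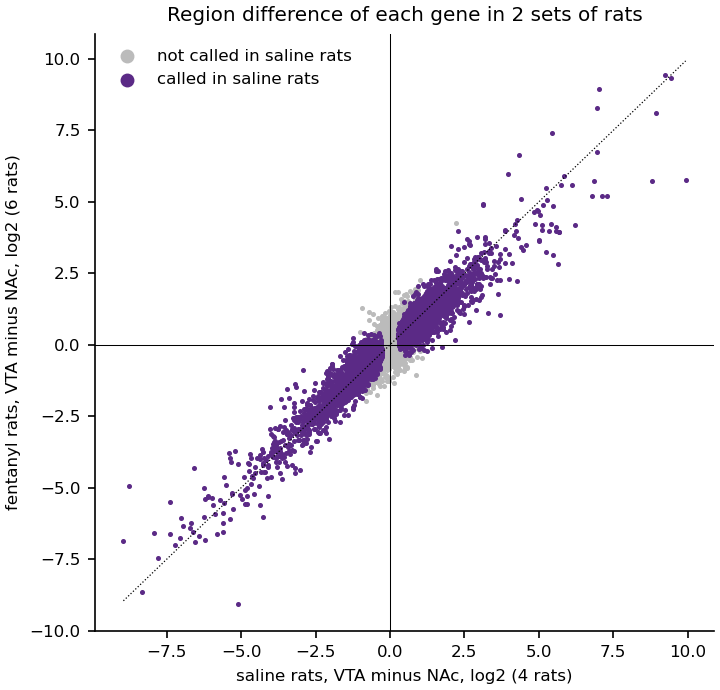
Log2 fold change (VTA minus NAc) of each gene tested in both sets of rats, in 4 saline rats (x axis) and in 6 fentanyl rats (y axis). Genes called in saline rats are purple, the rest grey, and the dotted line marks equal values; 98.9% of the purple points lie in the quadrants of equal sign.

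Whether treatment changed the region difference was tested directly, with an interaction term over the 20 libraries of the 10 rats. No gene of 14128 was called (0%, edgeR quasi-likelihood test), with a lowest adjusted p of 0.38, while 740 had an unadjusted p under 0.05. DESeq2 called 2 genes and limma voom 0. Without fentanyl female 2 the count was again 0. This does not show that the region differences were equal.

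The region difference was likewise compared between the sexes, with 2 rats of each sex. Of 13286 genes, 1 was called (0.00753%), while 1081 had an unadjusted p under 0.05. It is a single-block feature of 68 nt on the plus strand of the mitochondrial chromosome (1026 to 1093). In the NAc it had 78.6 and 95.1 CPM in males 1 and 3 and 21.8 and 19.1 CPM in females 1 and 2. In the VTA it had 3.12, 4.97, 6.64 and 4.66 CPM. The males were thus higher in the NAc, with no overlap, while the sexes overlapped in the VTA. The log2 difference of VTA minus NAc averaged -4.32 in males and -1.80 in females, a difference of 2.57 ± 0.34 (SE, adjusted p = 0.0451, edgeR).

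No separation of the sexes was seen for it in other rats. In the fentanyl rats the same feature had log2 differences of -2.50, -1.01 and -0.61 in males 1, 2 and 3 and of -5.04, -0.99 and -1.08 in females 1, 2 and 7, so the sexes overlapped there, and female 1 set the lower female mean (-2.37 against -1.37). The next lowest adjusted p of the saline test was 0.153. The count of called genes was 2 without male 1, 0 without male 3, 292 without female 1 and 63 without female 2. Each of these fits has 1 rat in one sex, which is then assumed to vary like the rats of the other sex. Without male 1 and without male 3 the mitochondrial feature was not called (adjusted p = 0.126 and 0.389), although its difference stayed at 2.40 and 2.79. It was also not called without rat as a block (0.0991) or by limma voom (0.103), with a difference of 2.57 in each, and its adjusted p ran from 4.88e-08 to 0.389 over the alternatives. The mean region difference had the same sign in both sexes for 10730 of all 13286 genes tested (80.8%); the region calls rest on both sexes together, so their agreement in sign is set largely by the call.

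Features of the mitochondrial chromosome, which carries genes for respiratory chain proteins and for the transfer and ribosomal RNAs of the organelle, took a smaller share of the counts in the VTA. The share was 18.4% in the VTA of male 1, 17.6% in male 3, 21.0% in female 1 and 19.4% in female 2, and 24.9%, 31.3%, 22.1% and 26.1% in the NAc. The VTA was lower in all 4 rats, and no VTA library reached the lowest NAc library. The means were 19.1% ± 1.48 and 26.1% ± 3.87 (SD, n = 4), a difference of -6.99 points that ran from -13.7 to -1.03 over the rats. In an exact two-sided sign-flip permutation test p was 0.13, the smallest that 16 arrangements can give. In the fentanyl rats the share was lower in the VTA in 6 of 6, with differences from -9.86 to -1.52 points.

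The longer mitochondrial features moved one way in the saline rats. Of 13 features of at least 200 nt, 10 (76.9%) were called lower in the VTA, against 24.3% of all genes tested, while 0 were called higher and 3 not called. All 13 were below 0, with log2 fold changes from -0.98 to -0.22 and a median of -0.75, against -0.00094 for all genes. In the fentanyl rats, where 3520 of 12852 genes tested were called higher in the NAc, 10 were called lower in the VTA and 0 higher. These were not all the same 10. The feature at 10160 to 11537 was called in saline rats only, and that at 7006 to 7689 in fentanyl rats only. The feature at 8599 to 9382, called in neither, had a log2 fold change of 0.107 in the fentanyl rats. The feature with the most negative value (9870 to 10166) had 2609 ± 311 CPM in the VTA and 5270 ± 1459 in the NAc (SD, n = 4). The one at 5323 to 6867, with the highest level per library, averaged 42024 ± 4457 CPM in the VTA and 52120 ± 8120 in the NAc and was not called (log2 fold change -0.30 ± 0.18, SE). The level of a single feature per kilobase in the NAc ran over a wide range, from 525 CPM per kb at 10160 to 11537 to 71912 at 7758 to 7961, which overlaps its neighbour.

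Short mitochondrial features were called in both directions. Of 12 under 200 nt that could be tested, 3 (25%) were called lower in the VTA and 2 (16.7%) higher. These shares are near the 24.3% and 23.7% of all genes tested. Those higher lie side by side on the minus strand, at 5081 to 5152 and 5185 to 5252. The first had 189 to 219 CPM in VTA libraries and 62.2 to 124 in NAc libraries (1.01 ± 0.17, SE, adjusted p = 0.000559, edgeR). The second had 46.1 to 72.6 and 28.2 to 40.8 CPM (0.82 ± 0.16, SE, adjusted p = 0.00107, edgeR). Both were higher in the VTA in all 4 rats, without overlap, and had log2 fold changes of 1.17 and 1.48 in the fentanyl rats. They thus went against the mitochondrial features of 200 nt or more.

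Outside the mitochondrial chromosome, few very short features were higher in the VTA. Of 370 features of 1 exon block under 500 nt, 18 (4.86%) were called higher in the VTA and 108 (29.2%) higher in the NAc, against 23.7% and 24.3% of all genes tested; 244 were not called, and the median log2 fold change was -0.47. They took 1.21% ± 0.113 of the counts in the VTA and 1.46% ± 0.142 in the NAc (SD, n = 4), with differences from -0.365 to -0.163 points over the rats (exact two-sided permutation p = 0.13, the smallest possible, also when adjusted over this and the mitochondrial share). Single-block features of 500 nt or more were closer to even in median (-0.022), with 81 of 444 higher in the VTA and 125 higher in the NAc. The part of punch size in this cannot be told apart from that of region.

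The split between regions differed with gene length. Over all genes tested, 23.7% were higher in the VTA and 24.3% higher in the NAc. Of 2898 genes spanning 2 to under 10 kb, 708 (24.4%) were called higher in the VTA and 498 (17.2%) higher in the NAc, with a median of 0.11. Of 110 genes spanning 500 kb or more, 30 (27.3%) were higher in the VTA and 50 (45.5%) higher in the NAc, with a median of -0.19. Between these, the share higher in the NAc was 21.9% at 10 to under 50 kb, 33.1% at 50 to under 100 kb, 31.6% at 100 to under 250 kb and 39.3% at 250 to under 500 kb, a rise that was not steady. The share higher in the VTA stayed between 23.2% and 27.3% from 2 kb upward. Genes of 30 or more exon blocks were likewise on the NAc side, with 171 of 742 (23.0%) higher in the VTA and 258 (34.8%) higher in the NAc.

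Level moves with span and with the number of calls. With genes cut into 5 equal groups by mean level, 427 of 2657 in the lowest group (median 3.47 CPM) were higher in the VTA and 339 higher in the NAc. In the highest group (median 137 CPM) 775 of 2658 were higher in the VTA and 994 higher in the NAc. The median level was 12.4 CPM for genes of 2 to under 10 kb and 63.5 CPM for those of 500 kb or more. The part of level in the counts by length was not tested.

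**Figure D5:**
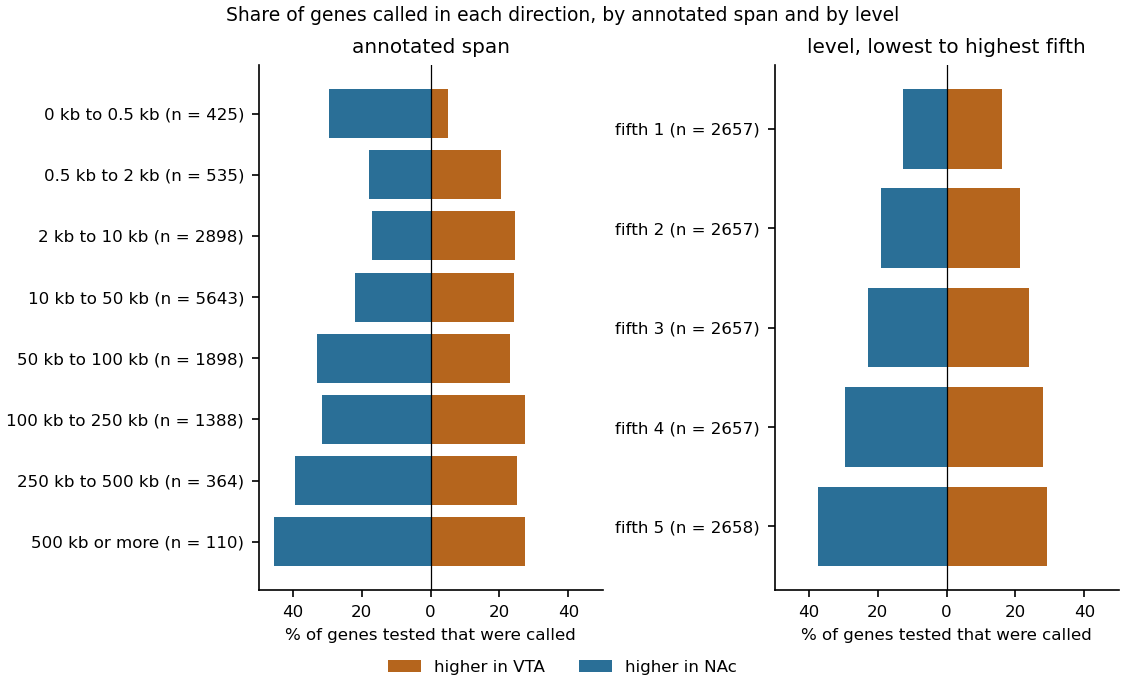
Percent of the genes tested that were called higher in the VTA (brown, to the right) or in the NAc (blue, to the left), by annotated span outside the mitochondrial chromosome (left panel) and by mean level in 5 equal groups (right panel), with the number of genes tested. In the left panel the blue bars are at 17.2% at 2 to 10 kb, 33.1% at 50 to 100 kb, 31.6% at 100 to 250 kb and 45.5% at 500 kb or more. The brown bars there are at 5.18% under 0.5 kb, at 20.4% at 0.5 to 2 kb and between 23.2% and 27.3% from 2 kb upward. In the right panel they are at 16.1% in the lowest and 29.2% in the highest group.

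The split also differed with the crowding of the chromosome around a gene (all genes, 23.7% higher in the VTA and 24.3% in the NAc). Neighbours were counted over all annotated features, tested or not. Of 5 equal groups, the one with the fewest neighbours within 500 kb on each side (median 6) had 623 of 2652 genes (23.5%) higher in the VTA and 847 (31.9%) higher in the NAc. In the group with the most (median 45), 607 of 2653 (22.9%) were higher in the VTA and 482 (18.2%) higher in the NAc. Genes over 50 kb were on the NAc side in both, with 371 and 488 of 1378 in the first and 38 and 53 of 168 in the second. For genes under 10 kb the larger side was not the same, with 105 against 160 of 535 in the first and 320 against 221 of 1390 in the second.

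By chromosome the split was close to even for most. Chromosome 18 had the highest share on the NAc side of the nuclear chromosomes, with 124 of 367 genes (33.8%) higher in the NAc and 79 (21.5%) higher in the VTA. Chromosome 2 had 258 and 190 of 893. Chromosome 10 had the lowest share on the NAc side of the autosomes, with 208 of 1039 higher there against 259 higher in the VTA. Chromosome 1, which holds 3 of the 4 abundant VTA genes, had 408 of 1632 higher in the VTA and 337 higher in the NAc.

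Some genes called with a fitted fold over 2 lay next to each other. Such genes were 10.1% of those tested on the VTA side and 9.72% on the NAc side. Among consecutive tested genes, runs of at least 4 of them in 1 direction numbered 4 for the VTA and 13 for the NAc. How many runs these shares give without clustering was not tested, and neighbours may share reads where they overlap. The longest held 5 genes on the minus strand of chromosome 3 (25201596 to 26056818), with log2 fold changes of -2.74 to -1.23, and all 5 were called higher in the NAc of the fentanyl rats. On chromosome 18 (30555090 to 30577035), 4 plus-strand genes within 21.9 kb ran from -1.30 to -1.17, nearly the same size of difference. On chromosome 2 (3400977 to 4088989), 4 genes ran from -4.36 to -2.88, and 3 pairs of them overlap. The abundant chromosome 14 gene and ENSRNOG00000005277 each belonged to a run of 4 with a smaller median log2 fold change (-1.43 and -1.31).

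Among runs of 2 or 3 genes, 3 on the VTA side and 6 on the NAc side had all members past 16-fold. The largest on the VTA side was a pair on opposite strands of chromosome 16 (68860018 to 68913628) with log2 fold changes of 8.43 and 9.23; together they had 446 CPM in the VTA and 0.87 CPM in the NAc. On the NAc side, 3 genes on chromosome 4 (32333356 to 32392007), 2 of which overlap, ran from -7.93 to -6.57 and had 84.3 CPM in the NAc and 0.435 CPM in the VTA. In the fentanyl rats those 3 ran from -6.91 to -6.60. Overlapping members of a run are not independent in the counts.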

How the data were processed

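Total RNA was depleted of ribosomal RNA and read as paired ends of 150 nt, about 22 M reads per sample (RNA integrity numbers 8.0 to 9.2, mean 8.7), per the labels' protocols. Each library's deposited table gives raw counts, not normalized by the authors, for 32552 Ensembl features. Tools in the submitters' processing notes are STAR 2.5.2b, Trimmomatic 0.36, Subread 1.5.2, DESeq2 and featureCounts; no source used here states the genome build, annotation, strand setting or handling of multiple alignments.

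The 8 libraries were fitted with edgeR 4.0.16 in R 4.3.3 (TMM, filterByExpr by region, robust quasi-likelihood F test, two-sided, rat as block; 3 residual degrees of freedom before moderation). The call was a Benjamini-Hochberg adjusted p under 0.05. CPM are scaled by TMM; SEs come from the F statistic; log2 CPM used a prior count of 2. Alternatives used DESeq2 1.42.0 and limma 3.58.1. The fit was tested on simulated data. The pairing comes from the animal code, which marks libraries of one rat. Residuals of a rat's libraries correlated at 0.017 to 0.124 over 4 pairs and those of different rats at -0.0996 to 0.0996 over 12, with the same rat the best match in 1 case, so the residuals alone do not show it.

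The rats, gene groups and tests were chosen with earlier results of these data known. The files pair no ID with a symbol and 0 rows of the reference table carry such an ID, so planned gene lists, markers and sequences were not analysed here. The naming rule (called, mean of at least 1 CPM, same sign in 4 rats, no overlap, largest fold changes) was kept for 2 IDs per direction in place of more. Another 4 genes per direction, past 16-fold with the highest levels, are given by position. They too had to be called, with the same sign in 4 rats and no overlap.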

Additional observations from a re-analysis of the deposited data

Results flagged for a closer look

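Gaps between 1 library and the other 3 of its region were checked in 40 measures, of which chance alone gives about 5%. The 2 that were flagged are about as many as chance gives. A few measures, such as the NAc level of ENSRNOG00000010681, were 0 in every library and could not be flagged. ENSRNOG00000010681 had 114 CPM in the VTA of female 2, against 2.62 to 12.9 CPM in the other 3 VTA libraries. On the first principal component the NAc library of male 3 was at -57.0, against -50.2 to -49.4 for the other 3 NAc libraries.

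The sexes differed in the region difference of 1 feature, at 1026 to 1093 of the mitochondrial chromosome, by 2.57 on the log2 scale (female minus male, edgeR interaction test). In the fentanyl rats the sexes overlapped in this value, from -2.50 to -0.61 in males and from -5.04 to -0.99 in females.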

How the results depend on the processing

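All 14 other settings kept the count of called genes and the count past 2-fold within 1.5 times of the values reported, at 5122 to 7568 and 915 to 1560 genes. Leaving out each saline rat gave 5122 to 6263 called and 1151 to 1481 past 2-fold, and the fit with no replicate block gave 6734 called. The share of calls higher in the VTA ran from 48.8% to 52.1%, and the scalings tried moved the median of all genes by under 0.01. Each of these scalings sets that median near 0, which favours an even split, so these values do not test the split.

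The count of sex differences was 0 with limma voom and with no replicate block, 2 with DESeq2 and 129 with no low-count filter, and 0 to 292 without single rats, in fits with 1 rat in one sex. It was 0 with mitochondrial features left out, which removes the only feature called. The count of treatment differences was 2 with DESeq2, 129 with no low-count filter and 0 to 1 without single rats. The cause was not tested.

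Leaving out single fentanyl rats gave 98.1% to 99.3% of saline calls with the same sign. The mitochondrial difference was -8.98 to -4.75 points without single rats and -6.81 over features of 200 nt or more. Genes chosen without fentanyl female 2 were an alternative added after seeing the data. With all libraries thinned to one depth 5862 genes were called, and with 2 rats of each sex the precision of sex differences was limited.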
